A study of Oryzias latipes with 6 samples.

Results

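The 5S ribosomal RNA genes of medaka (Oryzias latipes, a small laboratory fish) were followed copy by copy in RNA sequencing of the testis. The members were all rows of the deposited expression table with the gene name RF00001, the 5S family of the Rfam database, which gave 62 copies among 24365 genes. The members share a name, and the family was chosen by a measured value, the difference of 1 copy, ENSORLG00000029102, between the genotypes in these same libraries. All values that set mutant against wild-type fish are therefore given for the 5S copies as description. Where the fit across all genes calls a copy, the call is stated without its p-value and supports nothing. The same holds for counts of copies with a low unadjusted p. There were 3 libraries of wild-type testis (WT) and 3 of testis from nphp4 knockout fish (nphp4-/-), with the testes of 2 fish pooled for each library. The product of nphp4, nephrocystin-4, sits at the base of cilia. Age, strain and the lesion in nphp4 are not given in the labels.

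5S rRNA is the smallest RNA of the large ribosomal subunit. It is made by RNA polymerase III from many gene copies, often in tandem arrays, under a promoter that lies inside the gene and is bound by the transcription factor TFIIIA. Before it enters the ribosome it is carried in a particle with the ribosomal proteins Rpl5 and Rpl11. In fish and frogs, oocytes are known for storing large amounts of 5S rRNA.

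The libraries held 13438879 to 16054354 reads on genes. The values are FPKM, fragments that the authors scaled by the length of the gene and a number for each library, here called its total. Whole reads were recovered from them. In wild type 3 the total implied by the FPKM was 13693794, below its 15516979 reads on genes, so it is not a plain count of reads. In the other 5 libraries it was above their reads on genes. For the same share of reads on genes, FPKM values of wild type 3 are therefore raised beside theirs. Whether this scaling corrects for a difference in composition was not tested. Markers of germ cells and Sertoli cells were abundant in every library. The Sertoli cell RNA gsdf lay between 746 and 1078 FPKM. The germ cell RNA dmc1 was at 176, 169 and 155 FPKM in wild type, against 201, 265 and 224 FPKM in mutant fish. Its groups did not overlap, as in 14.0% of all tested genes in either direction. dmc1 was not called (log2 difference 0.46, SE 0.13, adjusted p = 0.464, limma). The germ cell RNAs piwil1 and dazl overlapped between the groups. The Leydig cell RNA star was below dmc1 and gsdf in every library. Wild type 3 stood apart through genes of the digestive glands. 5 pancreatic enzyme genes summed to 16125 FPKM there, against 249 to 2320 FPKM in the other 5 libraries. The mutant libraries also differed, with 249 FPKM in mutant 1 and 2230 and 2320 FPKM in mutant 2 and 3. The intestine marker cdh17 was at 116 FPKM in wild type 3 and 38.5 FPKM in mutant 2, against 0.224 to 0.985 FPKM elsewhere. A result of a bulk tissue cannot tell fewer cells of a type from less RNA per cell.

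The 62 copies lay on 22 chromosomes. Chromosome 3 held 12 of them, and 7 of these formed a block of 104 kb, from 1639950 to 1743971, all on the plus strand and none within another listed gene. The genome build is not named in the sources used here, so positions are as the deposited table gives them. RefSeq's annotation of the assembly ASM223467v1 lists 102 rRNA genes. 100 of these are on chromosome 3, all 119 bases long and all within the span of this block. 3 copies of the block have the same start and end as one of these 100 genes, and 2 have those of RefSeq pseudogenes. The other 97 RefSeq genes of the block were not analysed here. The remaining 55 copies were scattered, and 4 of them had another copy within 100 kb.

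Most copies were shorter than the RefSeq form. 10 copies were 119 bases long, the median was 113 bases, and the range was 44 to 135 bases. Of the 55 copies outside the block, 33 overlapped another listed gene, 19 on the same strand, 13 on the opposite strand and 1 on both. The table gives no exons, so whether such a copy lies in an intron or an exon of its host was not determined.

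Few copies carried reads. In the 6 libraries together 11927 reads fell on 5S copies, all of them on 20 of the 62, and 42 copies (67.7%) had no read in any library. Of all genes listed, 8.90% had no read. Among the 510 other genes no longer than the longest 5S copy, 198 (38.8%) had reads, against 32.3% of the 5S copies. A copy without reads is only listed at 0, since the RNA polymerase subunit genes polr2l and polr3k were also listed at 0 in every library. How reads that match several copies were counted is not given in the sources used here, and reads of near-identical copies can be assigned to one another or dropped.

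**Figure D1:**
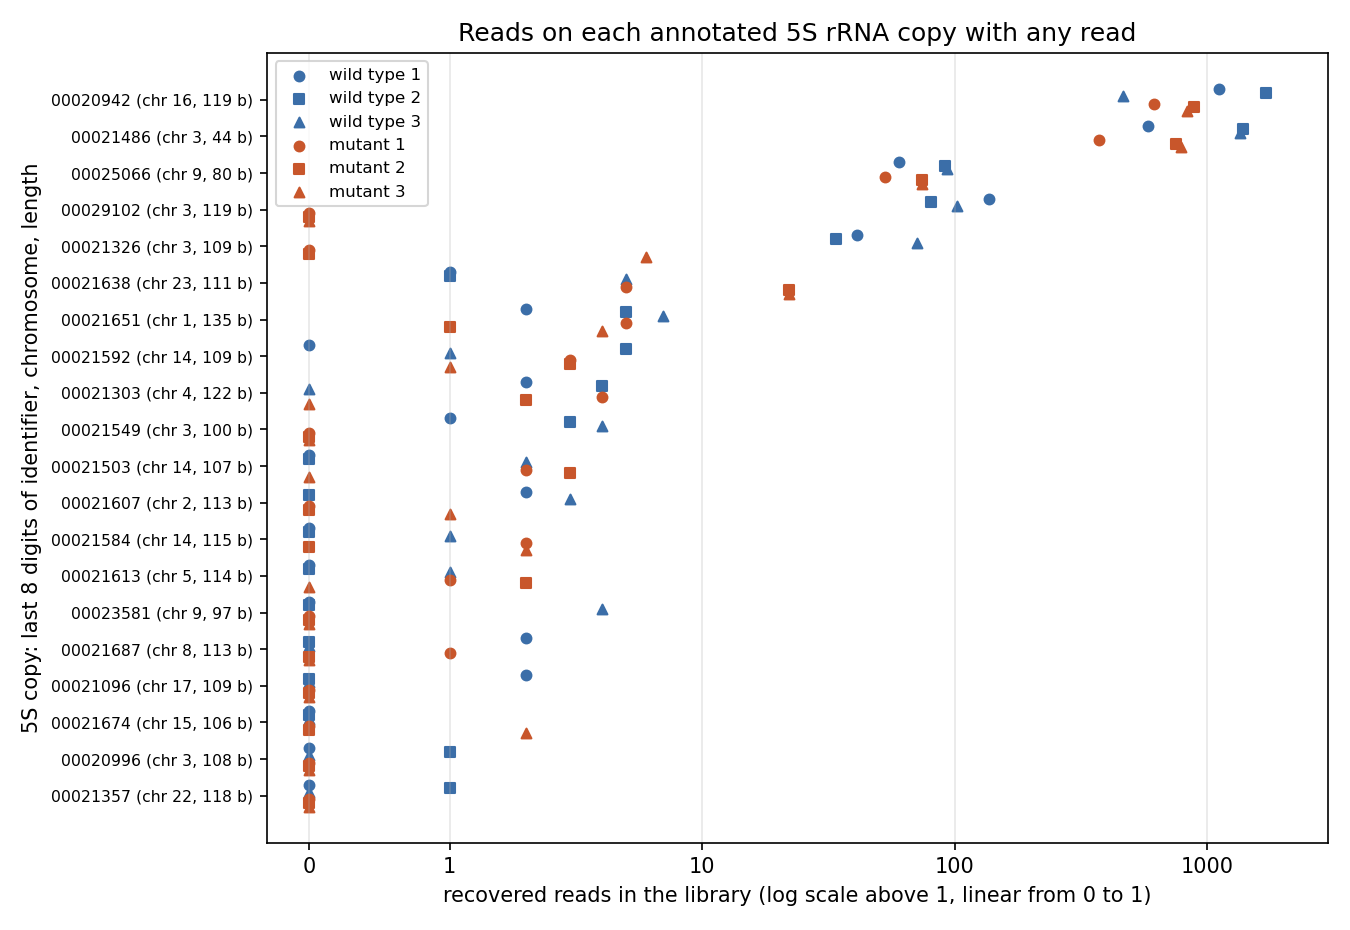
Recovered reads per library (x axis, log scale above 1) on each of the 20 copies with any read (y axis, ordered by total reads); blue points are the 3 wild-type libraries and orange points the 3 mutant libraries. 5 copies hold 98.8% of the reads, and the mutant points of ENSORLG00000029102 lie at 0.

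The signal was concentrated on a pair of loci. ENSORLG00000020942 on chromosome 16 (7713806 to 7713924, plus strand, 119 bases) held 5631 reads, 47.2% of all 5S reads. ENSORLG00000021486 in the chromosome 3 block (1728416 to 1728459, plus strand) held 5230 reads, 43.9%, although its annotated span is 44 bases. Together these copies held 91.1% of the reads, and the first 5 copies held 98.8%. 14 other copies had 1 to 24 reads each, 92 reads in all (0.771%).

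The chromosome 16 copy has the start and end of a RefSeq rRNA gene. Its description in the deposited table names the same NCBI gene as a copy of the chromosome 3 block, ENSORLG00000028958, which had no read. Its reads numbered 1119, 1709 and 464 in wild type 1, 2 and 3, against 618, 887 and 834 in mutant 1, 2 and 3. In FPKM, its level was 565, 941 and 285 in wild type and 363, 545 and 428 in the mutant, so the mutant libraries lay inside the wild-type range. The group means were 597 ± 329 and 446 ± 92.3 FPKM (SD, n = 3), a log2 difference of -0.28 (SE 0.43) on the log2(FPKM + 1) scale. Without wild type 2 the difference changed sign, to 0.13, and it was -0.73 without wild type 3, -0.14 without mutant 1 and -0.43 without mutant 2. A protein-coding gene without a symbol, ENSORLG00000027739, overlaps this copy on the same strand and did not exceed 0.337 FPKM in any library.

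The copy of 44 bases on chromosome 3 had 585, 1385 and 1345 reads in wild type, against 372, 752 and 791 in mutant fish. Its level was 799, 2063 and 2232 FPKM in wild type 1, 2 and 3 and 591, 1250 and 1099 FPKM in mutant 1, 2 and 3. Wild type 1 lay among the mutant libraries, so the groups overlapped. The means were 1698 ± 783 and 980 ± 345 FPKM (SD, n = 3), with a log2 difference of -0.73 (SE 0.48). Leaving out wild type 1 moved this to -1.20, leaving out wild type 3 to -0.46 and leaving out mutant 1 to -0.40.

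Which of the pair leads depends on the unit. In reads the chromosome 16 copy was ahead in 5 of 6 libraries, and in FPKM the short copy was ahead in all 6. A read on the 44-base copy adds 2.70 times as much FPKM as a read on a copy of 119 bases. In shares of summed FPKM, the short copy made up 66.7% ± 14.4 in wild-type libraries and 64.4% ± 5.38 in mutant libraries (SD, n = 3). In shares of reads, it made up 45.2% ± 17.3 and 41.2% ± 5.57 (SD, n = 3).

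Wild type 3 divided its 5S reads differently from the other 5 libraries. There the chromosome 16 copy held 22.1% of the 5S reads (95% Wilson interval 20.3% to 23.9%). In wild type 1 and 2 it held 57.3% and 51.5%, and in mutant 1, 2 and 3 it held 58.0%, 50.8% and 48.0%. The 44-base copy had 2.90 reads for each read of the chromosome 16 copy in wild type 3, against 0.523 to 0.948 in the other libraries. Wild type 3 is also the library with the high digestive gland genes, and their part in this shift was not tested. Over all 3 wild-type libraries the chromosome 16 share was 43.6% ± 18.9, against 52.3% ± 5.14 over the mutant libraries (SD, n = 3). Without wild type 3 the wild-type mean was 54.4%. Intervals cover counting error only.

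**Figure D2:**
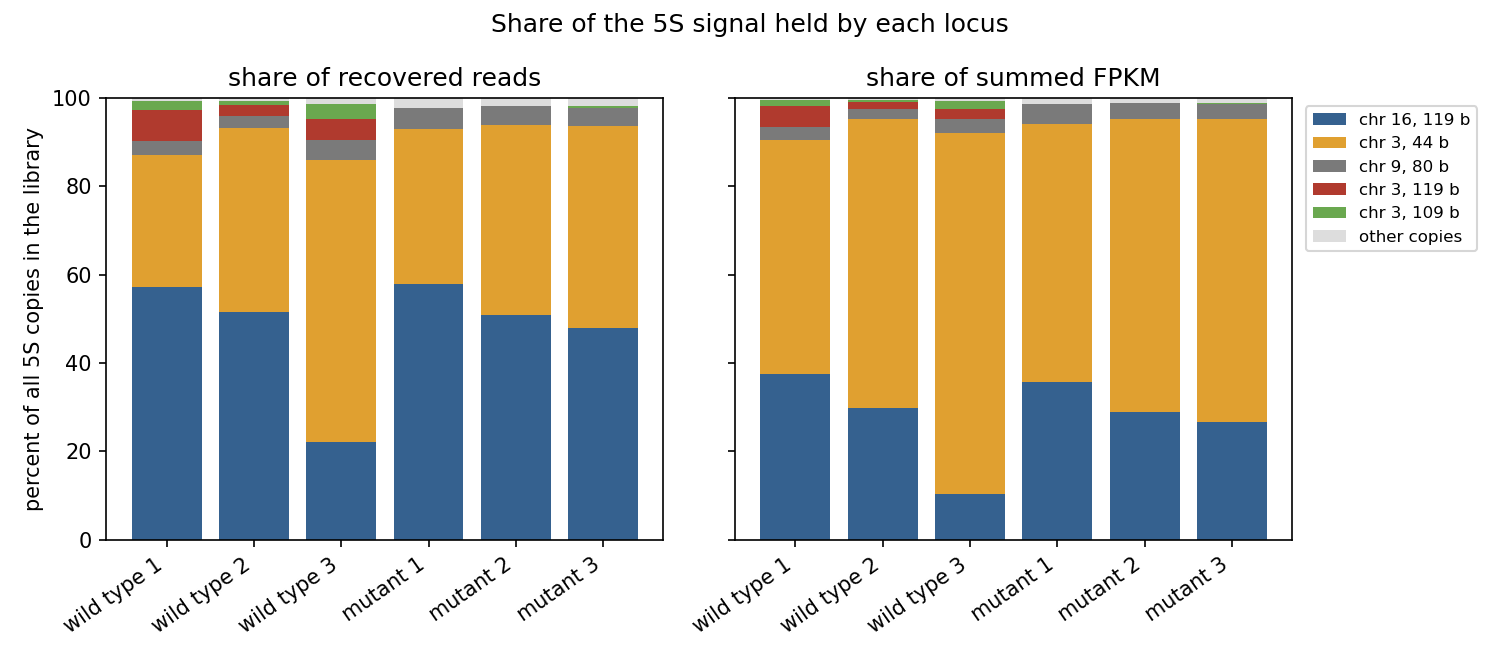
Share of all 5S reads (left) and of all summed 5S FPKM (right) held by each of the 5 copies with most reads, in percent, with 1 bar per library; grey caps are the remaining copies. Wild type 3 has the smallest chromosome 16 share in both panels, and the red segment of ENSORLG00000029102 is in the wild-type bars alone.

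A pair of other copies in the chromosome 3 block had nearly all their reads in wild type. ENSORLG00000029102 (1685048 to 1685166, plus strand, 119 bases) has the start and end of a RefSeq rRNA gene, with 57 RefSeq 5S genes of the block before it and 42 after it. It had 137, 81 and 102 reads in wild type 1, 2 and 3 and no read in any mutant library. Its level was 69.2, 44.6 and 62.6 FPKM in wild type. Against a floor of 3 reads over the mutant group, its pooled wild-type rate was 103.7-fold higher. In wild type it held 7.01%, 2.44% and 4.85% of the 5S reads. A count of 0 in the mutant libraries had upper 95% Wilson limits of 0.359%, 0.220% and 0.221% of their 5S reads. The fold leaves out the spread between libraries, and the limits cover counting error only. Reads of near-identical copies can also be assigned to one another or dropped. Since the difference of this copy chose the family, these values are description.

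ENSORLG00000021326 (1721199 to 1721307, plus strand, 109 bases), which RefSeq lists as a pseudogene, lies between ENSORLG00000029102 and the 44-base copy. It was singled out after its values were seen. It had 41, 34 and 71 reads in wild type 1, 2 and 3, no read in mutant 1 and 2, and 6 reads in mutant 3. In FPKM it was at 22.6, 20.4 and 47.6 in wild type and at 0, 0 and 3.37 in the mutant. The groups did not overlap, as in 14.0% of all tested genes in either direction. The means were 30.2 ± 15.1 and 1.12 ± 1.94 FPKM (SD, n = 3), with a log2 difference of -4.15 (SE 0.66). Of the remaining block copies, ENSORLG00000020996 had 1 read in wild type 2, and ENSORLG00000028958, ENSORLG00000028822 and ENSORLG00000028746 had none.

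**Figure D3:**
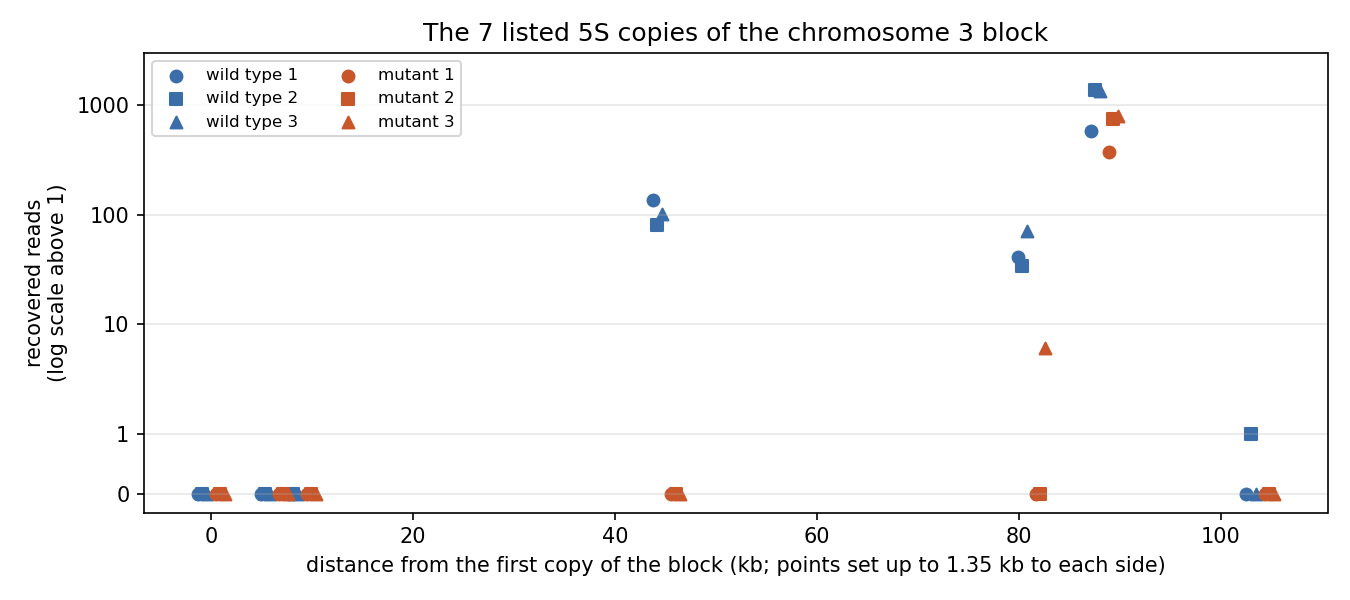
Recovered reads (y axis, log scale above 1) on the 7 listed copies of the chromosome 3 block against their distance from the first copy in kb (x axis), with blue wild-type and orange mutant points. The copies at 45.1 and 81.2 kb have reads in all wild-type libraries and few or none in the mutant, while the 44-base copy at 88.5 kb has 372 to 1385 reads in every library.

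The genes around the block were read from the same fit across all genes. Within 500 kb of ENSORLG00000029102, 10 genes outside the 5S family were tested. None of the 10 passed in limma, where 0 had an unadjusted p below 0.05, against 1084 of all 15203 genes tested. None passed in limma-voom either, which called 0 genes in the whole table. Their log2 differences ran from -0.82 to 0.27 with a median of -0.11. The 4 genes inside the block that are not 5S reached at most 0.492 FPKM in any library. A pattern of at least 10 reads in every wild-type library and none in the mutant, a threshold set with these values known, was met by 6 of the 24365 genes (0.0246%). One of the 6 is ENSORLG00000029102. The reverse pattern was met by 1 gene.

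Outside the block, ENSORLG00000025066 on chromosome 9 (13438548 to 13438627, minus strand, 80 bases) was the other copy with over 100 reads. It overlaps tpcn1, which encodes a two-pore channel of endosomes and lysosomes, on the same strand. It had 60, 92 and 93 reads in wild type, against 53, 74 and 74 in mutant fish. In FPKM, which is per length, it was at 45.1, 75.4 and 84.9 in wild type, against 46.3, 67.7 and 56.6 in mutant fish, and the groups overlapped. The level of tpcn1 was 10.4 to 18.2 FPKM, below that of the copy in all 6 libraries.

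ENSORLG00000021638 on chromosome 23 (20236195 to 20236305, plus strand, 111 bases) had its higher values in the mutant. It had 1, 1 and 5 reads in wild type 1, 2 and 3 and 5, 22 and 22 reads in mutant 1, 2 and 3. Its level was 0.541, 0.590 and 3.29 FPKM in wild type, against 3.15, 14.5 and 12.1 FPKM in mutant fish. Mutant 1 was slightly below wild type 3, so the groups overlapped. The log2 difference was 2.11 (SE 0.63). It lies within no other listed gene and was also singled out after its values were seen.

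Several other copies with reads overlapped expressed genes and were far below these hosts. ENSORLG00000021592 overlaps mks1, a gene of the ciliary transition zone, on the same strand. It had 13 reads and at most 3.01 FPKM, against 12.4 to 19.9 FPKM for mks1. ENSORLG00000021584 overlaps cct6a, a subunit of the CCT chaperonin, on the same strand. This copy had 5 reads, at most 1.22 FPKM against 161 to 247 FPKM for cct6a. ENSORLG00000021503 overlaps stt3a, a catalytic subunit of protein N-glycosylation, on the opposite strand, with 7 reads in all. Outside the block, 8 of 19 copies with a host on the same strand alone had reads, 4 of 13 with a host on the opposite strand alone, and 3 of 22 without a host. Counting by strand is not stated, so reads of a copy and of its host cannot be told apart.

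Most copies with reads were detected in both groups. Reads were found on 19 copies in wild type and on 14 in mutant fish, with 13 in both. 6 had reads in wild type alone, and 1, ENSORLG00000021674 with 2 reads, in the mutant alone. Among the 6 was ENSORLG00000029102, whose difference chose the family, and the rest had 1 to 8 reads each. The share of all genes with reads in 1 group alone is not given here, so nothing is read from these counts. Per library, 12, 12 and 14 copies had reads in wild type and 11, 9 and 10 in the mutant. 5 copies had reads in all 6 libraries.

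Summed over all 62 copies, 5S reads numbered 1954, 3321 and 2103 in wild type 1, 2 and 3 and 1066, 1746 and 1737 in mutant 1, 2 and 3. This was 122, 226 and 136 5S reads per 1000000 reads on genes in wild type, against 76.8, 130 and 108 in mutant fish. Mutant 2 lay above wild type 1, so the groups overlapped. The means were 161 ± 56.5 and 105 ± 26.7 (SD, n = 3). The difference in this rate, -56.2, was -23.8 without wild type 2. On the log2(FPKM + 1) scale the summed level differed by -0.69, by -0.43 without mutant 1 and by -0.50 without the 44-base copy.

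**Figure D4:**
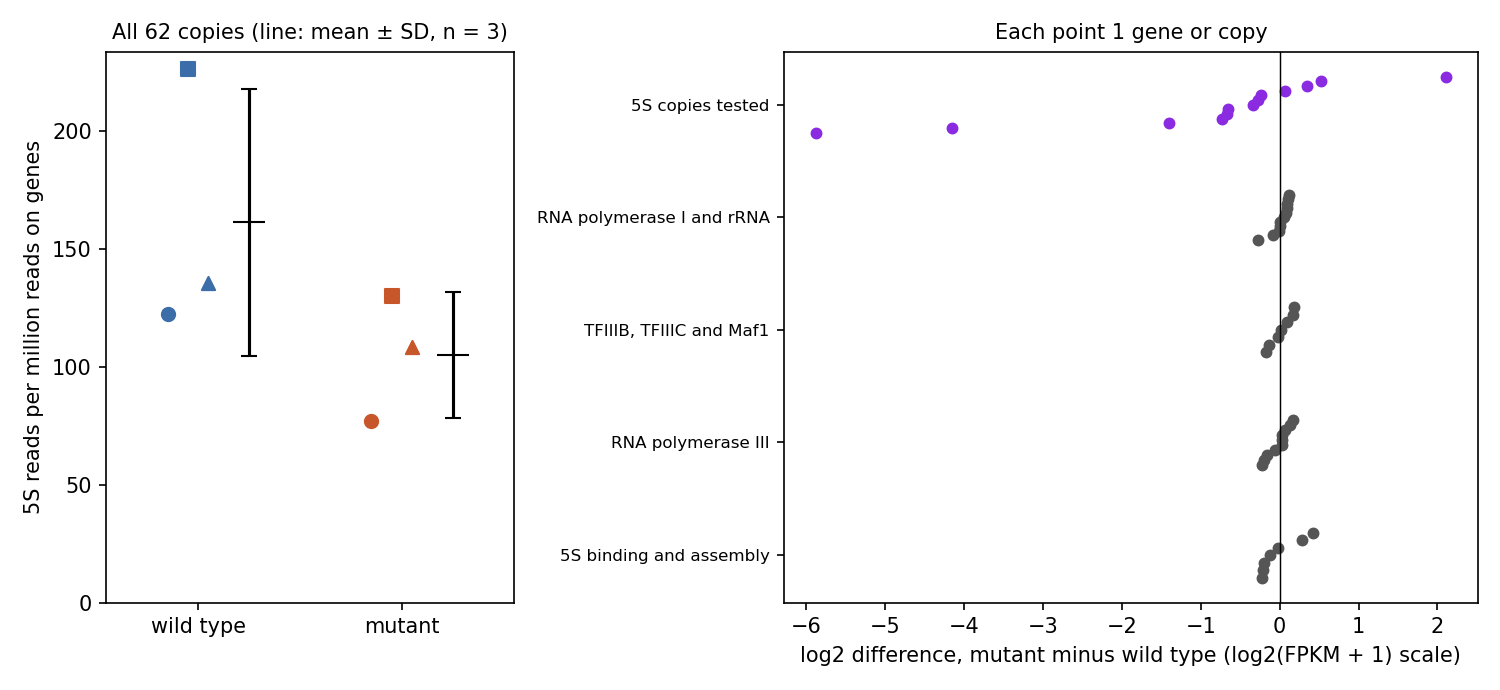
Left, 5S reads per 1000000 reads on genes in each library, with the mean and SD of each group as a line and bars (n = 3); right, log2 differences, mutant minus wild type, of each tested gene of 4 fixed lists and of the 13 tested 5S copies. The groups overlap on the left. On the right the listed genes lie between -0.28 and 0.42, and the 5S copies between -5.88 and 2.11. The point at -5.88 is ENSORLG00000029102, whose difference chose the family. The point at 2.11 is a copy with 56 reads, singled out after its values were seen. These ranges are therefore not compared.

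The comparison of all genes took those whose mean reached 1 FPKM in wild type or mutant, 15203 in number. 13 of the 62 copies passed that filter, 8 through both groups, 4 through wild type alone and 1 through the mutant alone, and the other 49 were too low. The lowest copy inside the filter had a group mean of 1.00 FPKM and the highest outside it 0.760 FPKM. By limma at a false discovery rate of 0.05, 1 of the 13 was called, beside a background of calls of 0.0592% of genes in either direction and 0.0263% lower in the mutant. The called copy was ENSORLG00000029102, whose difference chose the family and which passed the filter through wild type alone, so the call is no evidence about it. In limma-voom on the recovered reads it was not called. The groups were apart in 3 of the 13, all lower in the mutant, where 6.45% of all tested genes were lower without overlap and 14.0% were apart in either direction. The third of these was ENSORLG00000021549, with 8 wild-type reads in all and none in the mutant. It too passed the filter through wild type alone, so the filter favoured its direction. The median log2 difference was -0.33 over the 13 and 0.01 over all tested genes. The former was -0.60 without wild type 1 and -0.52 with a pseudocount of 0.1. It was -0.27 without wild type 2 and -0.22 with library totals. The 4 copies that passed through wild type alone all lie below this median, and the 1 through the mutant alone lies above it. Since the family was chosen through this contrast, nothing is read from these counts.

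Among other small RNAs, 189 rows of snoRNAs, which guide the modification of rRNA, held 3919 reads. 19 RNA families, partly overlapping these, were looked up by their Rfam names, among them the spliceosomal U RNAs, the signal recognition particle RNA, 7SK, Y RNA and 5.8S rRNA, and 17 of them had rows. Their 164 rows held 345 reads in all, so 5S reads were 34.6 times as many. These are reads without scaling for length, and how well the libraries captured small RNAs was not determined, so the ratio is not one of RNA levels. U1, which recognises the start of introns, had 108 reads over 24 rows. The signal recognition particle RNA, which guides secreted proteins to the membrane, had 61 reads over 44 rows. The single rows of 7SK and of 5.8S rRNA were listed at 0. Among all nuclear rows of small non-coding biotypes, 5S copies held 67.6% of the reads.

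**Figure D5:**
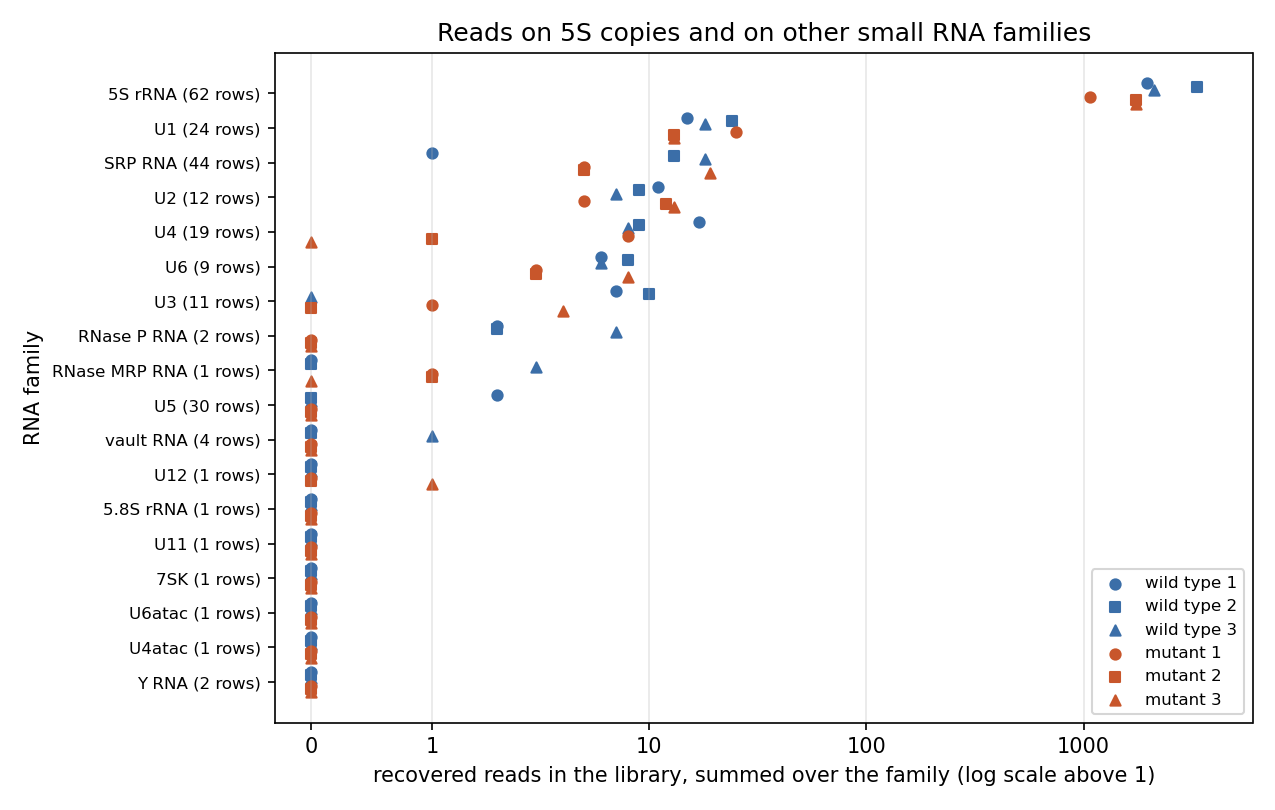
Recovered reads per library (x axis, log scale above 1), summed over the rows of 5S rRNA and of each of the 17 other families with rows (y axis, number of rows in brackets). 5S has 1066 to 3321 reads in each library, and U1, the next family, has at most 25.

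Genes of 5S production and handling, and of RNA polymerase I and rRNA processing, did not pass the test. Of 38 genes found from the 4 fixed lists, 35 were tested in limma, 11 of them in the list of RNA polymerase I and rRNA processing. Of the 35, 0 were called in either direction, with 20 estimates above 0 and 15 below. None of the 35 had an unadjusted p below 0.05 in limma, against 1084 of all 15203 genes tested. On the recovered reads, limma-voom called 0 of the 35, but it called 0 genes in the whole table. gtf3ab, which encodes TFIIIA, was at 2.82, 3.36 and 2.15 FPKM in wild type, against 4.80, 1.91 and 4.66 FPKM in mutant fish (log2 difference 0.29, SE 0.30, adjusted p = 0.870, limma). The mutant libraries lay on both sides of the wild-type ones. rpl5a, the ribosomal protein that binds 5S rRNA, was at 2684 ± 424 FPKM in wild type, against 2284 ± 181 FPKM in mutant fish (SD, n = 3), a log2 difference of -0.22 (adjusted p = 0.810, limma). rpl11, its partner in the 5S particle, was at 3043 ± 435 and 2604 ± 108 FPKM (SD, n = 3; log2 difference -0.22, adjusted p = 0.810, limma). ssb, the La protein that holds the ends of new polymerase III transcripts, was at 49.3 ± 7.58 and 45.4 ± 9.44 FPKM (SD, n = 3; adjusted p = 0.907, limma). trove2, which encodes the Ro protein that binds misfolded 5S rRNA in frogs, was at 25.2, 25.5 and 21.0 FPKM in wild type, against 26.2, 31.3 and 41.0 FPKM in mutant fish. Its groups did not overlap, with a log2 difference of 0.42 (SE 0.19, adjusted p = 0.728, limma). RPF2, another gene of 5S binding and assembly, was apart in the opposite direction (log2 difference -0.20, adjusted p = 0.819, limma). It was at 62.6, 51.3 and 48.8 FPKM in wild type, against 46.6, 47.8 and 45.8 FPKM in mutant fish. Neither was among the genes set to be named. The groups of every other tested gene of the 4 lists overlapped, and 14.0% of all tested genes were apart in either direction.

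The median log2 difference was -0.12 over the 7 tested genes of 5S binding and assembly, 0.03 over 10 of RNA polymerase III, 0.02 over 7 of TFIIIB and TFIIIC, and 0.05 over 11 of RNA polymerase I and rRNA processing, beside 0.01 over all tested genes. Oocyte markers were low in both groups. The 5 found in the table summed to 5.27 to 8.20 FPKM per library, and of the 2 that were tested 0 were called by limma or limma-voom. Both had an unadjusted p below 0.05, as had 1084 of the 15203 genes tested in limma. Of the 2 markers, figla, a transcription factor of oocytes, was at 3.69 ± 0.267 FPKM in wild type, against 2.42 ± 0.659 FPKM in mutant fish (SD, n = 3; adjusted p = 0.657, limma). btg4, which clears maternal mRNA, was at 0.584 ± 0.471 and 3.19 ± 1.39 FPKM (SD, n = 3; adjusted p = 0.340, limma). It passed the filter of 1 FPKM through the mutant alone, where it is high, so nothing is read from its p. Any part of oocytes in the 5S levels was not tested.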

How the data were processed

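RNA from medaka testis was sequenced in 6 libraries, 3 per group. Per the labels' protocols, TRIzol was used for extraction. HISAT2 2.0.5, featureCounts 1.5.0-p3, fastp, CASAVA 1.8 and DESeq2 1.20.0 are listed, without their roles, in the submitters' processing notes. The deposited values are FPKM per gene, made by the authors. Other columns of the deposited table hold quantities of another kind, the gene length and positions in bases. FPKM times length gave whole reads for 100% of the values above 0, within 0.01 read. These reads set all shares and rates.

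limma 3.58.1 (R 4.3.3) was fitted to log2(FPKM + 1) with trend and robust moderation over 15203 genes, with Benjamini-Hochberg adjustment. The fit was tested on simulated data in which only genes with many expected reads were changed. Copies with few reads, or none in a group, were not covered by that test. Alternatives were another pseudocount, no filter, library totals, limma-voom, a replicate block, a stricter threshold and each library left out. Python 3.11.15 made the other values. The fold against a floor uses 3 reads over a group. Named in full by rule were copies with at least 5% of 5S reads, called copies, copies with at least 10 reads in 1 group alone and ENSORLG00000029102. The other copies described in full were chosen after their values were seen. Members and lists were chosen with earlier results of these data known. Rfam and marker lists were matched by name.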

Additional observations from a re-analysis of the deposited data

How the results depend on the processing

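The log2 difference of ENSORLG00000029102 ran from -9.18 to -5.75 over 11 alternative fits, with -9.18 at a pseudocount of 0.1. The mutant values of this copy were all 0, so in limma the size of the difference depends on the pseudocount. Leaving out a mutant library could not move the difference. The family was chosen by this difference, so its sign and its call support nothing. Run on the recovered reads, limma-voom gave calls for 0 genes (1050 of 15203 at an unadjusted p below 0.05). It called 0 of the 13 tested 5S copies, of which 3 had an unadjusted p below 0.05, and 4 had in limma. Since the family was chosen through this contrast, nothing is read from the counts of 5S copies. In limma, 9 genes were called, which became 14 without a filter, 14 with library totals and 5 at a false discovery rate of 0.01. Their number ran from 2 to 18 with 1 library left out, with 18 when wild type 3 was omitted, 4 when wild type 1 was, and 3, 2 and 2 when mutant 1, 2 and 3 were. With the replicate number as a block, 6 genes and 2 of the 5S copies were called, the second being ENSORLG00000021326. Deviations of same-numbered libraries had correlations of 0.31, -0.56 and -0.42, and the highest of any pair was 0.61, for wild type 3 and mutant 2. With 3 libraries per group, such correlations cannot decide whether the numbers pair the libraries. Without a filter, when all 62 enter, the median log2 difference of the 5S copies was 0. That value was fixed in advance, since 42 of the 62 had no read in any library. With the filter, the median ran from -0.60 to -0.27 with 1 library left out. The chromosome 16 copy, ENSORLG00000020942, reversed to 0.13 without wild type 2, in a range of -0.73 to 0.13 with 1 library left out, and the 44-base copy ran from -1.20 to -0.40. The chromosome 16 share in the mutant was 30.5% of summed FPKM in place of 52.3% of reads, since FPKM weights short copies more. Summed 5S FPKM kept its sign in all alternatives, and its value without the 44-base copy was chosen after seeing the data. Apart from the filter and the weighting by length, the cause of these changes was not tested. For copies with under 25 reads, depth limits any comparison.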
